A study of Mus musculus with 4 samples.

Results

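The genes described here are 10 members of the WNT signalling pathway: the ligands Wnt10b, Wnt4 and Wnt5a, the receptor Fzd1, the secreted proteins Sfrp1 and Dkk3, the feedback inhibitor Axin2, the transcription factors Lef1 and Tcf7, and the WNT-linked regulator Tcim. They were found by matching the accession or description of every printed probe to a gene symbol, which gave 10 of 11589 genes named on the array and 11 of its 16463 probes, because Sfrp1 has both a RefSeq probe and a RIKEN clone probe. Of these, 10 probes of 9 genes were bright enough to test. The Dkk3 probe was not above background in either channel on any of the 4 arrays and is given no fold change.

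Each of the 4 arrays compared mouse embryonic fibroblasts (MEFs), connective tissue cells grown from embryos, transfected with the homeobox gene Dlx3 (Cy5 channel) with a control (Cy3 channel) on the same slide. On 2 arrays MEFs stably transfected with a Dlx3 plasmid were set against MEFs carrying an empty plasmid (the stable group). On the other 2, MEFs transfected for 24 h and expressing Dlx3 were set against control MEFs (the transient group), and the labels do not say whether those controls received an empty plasmid. The labels name neither the plasmid's promoter, the number of stable clones, nor the age or strain of the embryos, and the second array of each group is called a biological repeat without naming separate cultures, so p-values measure the spread between these arrays. All ratios below are log2 of the Dlx3 channel over the control channel, so that 1 is a doubling in Dlx3 cells.

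WNT proteins are secreted ligands that bind frizzled receptors and their co-receptors. In the canonical branch this stops a complex built on Axin proteins from degrading beta-catenin, which then enters the nucleus and activates genes with DNA-bound partners of the TCF/LEF family. Axin2 is itself a target of that branch and feeds back on it, secreted frizzled-related proteins bind WNTs outside the cell, and in mesenchymal cells the pathway is known for steering precursors between bone and fat. Tcim is a small regulator that in human cells relieves the repression of beta-catenin by Chibby.

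Wnt10b, Fzd1, Axin2 and Tcf7 are the genes with a RefSeq promoter entry (GRCm38.p6) whose change in stable transfectants passed the test under both normalizations used below. Their entries are shown, from 250 bases before the annotated start to 50 after it. That start need not be the gene's first, so a window may hold coding sequence. The fifth sequence is the most downstream of 4 Lef1 entries, shown because it was the only entry of the 6 genes matched that held a searched motif. Capitals mark motif matches on either strand. The motifs were the TCF/LEF word CTTTG followed by a pair of bases that are each A or T, and the homeodomain word TAATT. Neither overlaps the other in the matches shown.
Wnt10b, chr15:98778101-98778400, minus strand: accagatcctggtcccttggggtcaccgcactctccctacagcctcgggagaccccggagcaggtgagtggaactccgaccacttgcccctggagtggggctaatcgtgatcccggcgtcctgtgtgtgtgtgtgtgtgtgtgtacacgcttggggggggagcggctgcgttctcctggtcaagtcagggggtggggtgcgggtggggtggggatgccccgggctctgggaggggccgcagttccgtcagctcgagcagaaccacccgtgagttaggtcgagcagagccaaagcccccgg
Fzd1, chr5:4758167-4758466, minus strand: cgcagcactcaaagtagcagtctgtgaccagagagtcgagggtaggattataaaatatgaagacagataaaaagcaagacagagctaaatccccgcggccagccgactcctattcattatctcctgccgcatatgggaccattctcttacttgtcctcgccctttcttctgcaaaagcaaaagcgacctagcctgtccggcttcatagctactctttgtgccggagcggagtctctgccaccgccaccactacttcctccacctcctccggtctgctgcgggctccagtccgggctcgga
Axin2, chr11:108920099-108920398, plus strand: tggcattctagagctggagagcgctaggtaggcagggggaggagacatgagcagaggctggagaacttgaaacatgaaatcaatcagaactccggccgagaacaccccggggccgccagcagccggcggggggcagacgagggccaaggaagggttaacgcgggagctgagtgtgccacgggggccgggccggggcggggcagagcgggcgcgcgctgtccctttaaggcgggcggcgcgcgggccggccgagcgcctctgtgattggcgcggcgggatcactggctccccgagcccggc
Tcf7, chr11:52282965-52283264, minus strand: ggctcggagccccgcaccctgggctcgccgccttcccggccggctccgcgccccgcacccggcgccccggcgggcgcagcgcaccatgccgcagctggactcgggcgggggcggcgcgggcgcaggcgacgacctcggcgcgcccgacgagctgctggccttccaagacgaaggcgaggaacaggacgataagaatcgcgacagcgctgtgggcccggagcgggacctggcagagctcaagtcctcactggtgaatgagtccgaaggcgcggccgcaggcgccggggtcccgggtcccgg
Lef1, chr3:131156044-131156343, plus strand: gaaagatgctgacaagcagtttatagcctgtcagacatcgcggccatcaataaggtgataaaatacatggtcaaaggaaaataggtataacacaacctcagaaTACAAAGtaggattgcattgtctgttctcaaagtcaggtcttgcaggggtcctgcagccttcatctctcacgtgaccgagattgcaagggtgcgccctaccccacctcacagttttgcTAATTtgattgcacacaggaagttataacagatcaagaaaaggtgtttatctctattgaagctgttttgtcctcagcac

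Neither motif occurred in the first 4 sequences, and the Lef1 entry held 1 match of each, the TCF/LEF word on the opposite strand. Of 32851 promoter entries of the same length, 16.9% held a TCF/LEF word and 27% the homeodomain word. These matches describe the letters of the window and nothing about binding.

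Several facts of the arrays bear on every ratio. The share of transcript spots above local background was 77.3 to 87.2%, and the 95th percentile of 192 randomized oligonucleotides, spots with no intended target, lay between 921 and 4943 scanner units after background subtraction. The fibroblast markers Vim and Col1a2 exceeded that percentile in the control channel on all 4 arrays, as 2 of 6 fibroblast markers with a probe. The endothelial marker Kdr did so too, as 1 of 4, while 0 of 4 epithelial, 0 of 1 blood, 0 of 2 muscle and 0 of 2 neural markers did. The Dlx3 probe itself read 0.06 and 0.23 on the stable arrays, against 0.14 and 0.56 on the transient arrays, and was not called in either group (limma adjusted p = 0.396 and 0.179), and 0 of the 4 arrays placed it above the randomized percentile. The dyes have the same orientation on every array, so a probe's dye bias stays in each group's ratio and cancels in the difference between groups where it is equal.

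The position of a spot on the slide also moved with its ratio. The array is printed as 32 blocks, sub-grids of 24 columns by 23 rows, and after global loess, which fits 1 intensity curve for the whole array, block 29 had the lowest median ratio on all 4 arrays. Its medians were -0.40 and -0.30 on the stable arrays, against -0.25 and -0.35 on the transient arrays. The next lowest block medians were -0.27 and -0.23 on the stable arrays, against -0.12 and -0.21 on the transient arrays, and no block exceeded 0.18. In block 29, 258 of 465 probes tested were called lower in the stable group and 5 higher. With print-tip loess, which fits a curve for each block, those counts were 44 lower and 49 higher. Wnt10b, Wnt4 and Lef1 are all printed in block 29, so their print-tip values are given beside each result.

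**Figure D1:**
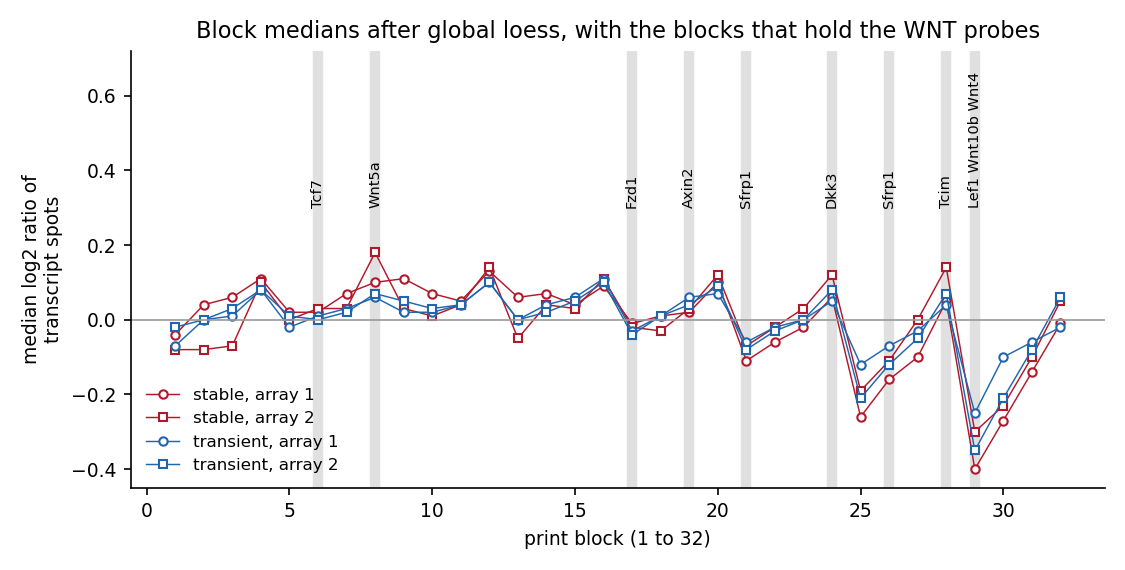
Median log2 ratio (Dlx3 over control) of the transcript spots of each of 32 print blocks after global loess, 1 line per array (stable in red, transient in blue; circles array 1, squares array 2). Grey bands mark the blocks that hold the WNT probes. Block 29, with Lef1, Wnt10b and Wnt4, lies lowest on every array, at -0.40 and -0.30 on the stable arrays, against -0.25 and -0.35 on the transient arrays.

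Stable transfectants were compared with empty-plasmid cells to ask which of these genes differ once Dlx3 is carried permanently. Tcim, Fzd1, Axin2 and Tcf7 rose, by 9.07-, 2.07-, 1.63- and 1.51-fold, and Wnt10b fell by 1.36 on the log2 scale. Wnt4 and Lef1 were called lower under global loess and were not called under print-tip loess. Wnt5a and both Sfrp1 probes did not pass the test. In all, 7 of 10 probes were called (4 higher and 3 lower, limma with Benjamini-Hochberg adjustment over all probes, adjusted p under 0.05), where 22.7% of all 14611 probes tested were called, 11.6% higher and 11.2% lower. Their median was 0.30, against 0.01 for all probes. Under print-tip loess 5 of 10 were called (4 higher and 1 lower), where 17.3% of all probes were, 9.68% higher and 7.67% lower. The genes were chosen with results of these arrays known, so the counts describe them and are no evidence of a change of the pathway.

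In the transient group, 24 h after transfection, 1 of the 10 probes was called, Lef1, which fell by 0.87 on the log2 scale (0.144% of all 14613 probes were called, 0.0958% or 14 probes higher and 0.0479% or 7 probes lower). Under print-tip loess 0 of 10 were called by limma, with 7 of 10 at an unadjusted p under 0.05 and 0.103% of all probes called. The median of the 10 probes was 0.22, against 0 for all probes. Counts in this group depend on which arrays give the estimate of spread: fitted on the transient arrays alone, 7 of the 10 probes were called, 5 higher and 2 lower, where 8.88% of all probes were. Other scalings also changed the split over all probes, to 143 higher and 504 lower with median centring and 623 higher and 777 lower with scaling between arrays.

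The difference between the groups, stable minus transient, was called for 1 of 10 probes, Tcim (0.24% of all probes were called). The mean of both groups was called for 10 of 10 probes, 7 higher and 3 lower, where 22.3% of all probes were (11.1% higher and 11.3% lower). Under print-tip loess it was called for 8 of 10, where 13% of all probes were. Such a call does not need a change in both groups. Axin2 was called higher with 0.70 in the stable and -0.15 in the transient group, the RIKEN probe of Sfrp1 with 0.06 and 1.03. Fzd1 stood at 1.05 and 0.60. A dye effect does not cancel in this mean. Where an array is left out below, its group is 1 array that is assumed to vary like the pair of the other group, so a call gained that way says nothing about repeatability within the group. In MEFs in culture a lower ratio may mean fewer expressing cells or less RNA per cell, and the arrays cannot tell these apart.

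**Figure D2:**
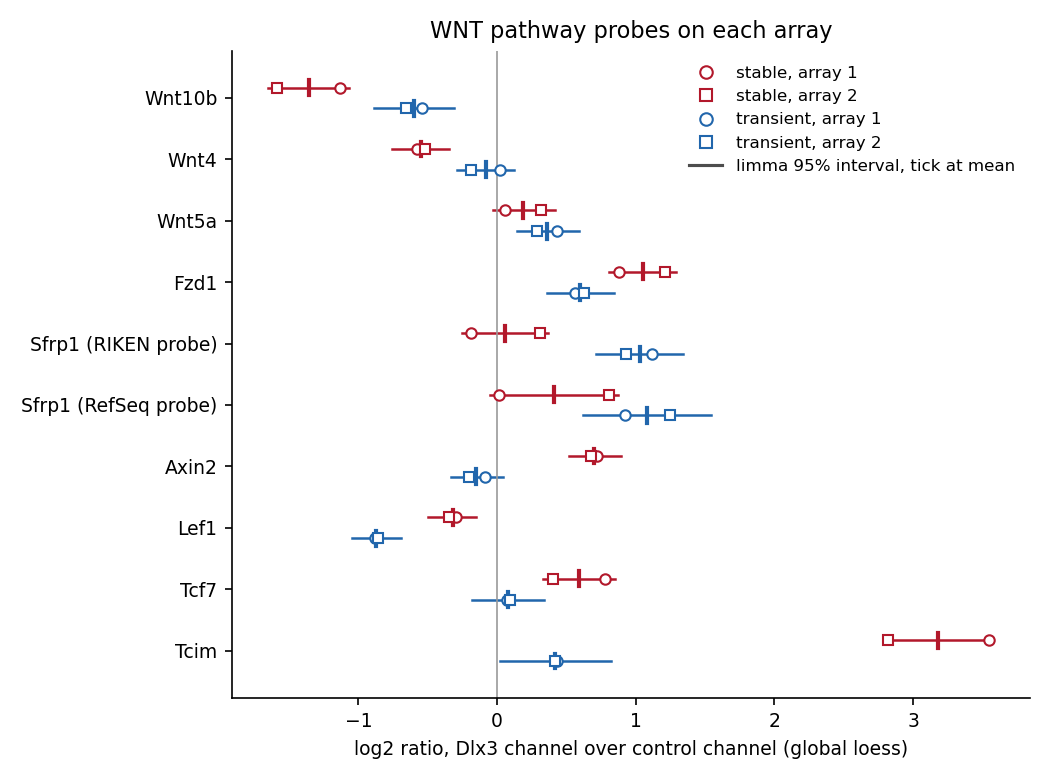
Log2 ratio (Dlx3 over control, global loess) of the 10 tested WNT probes on each array, with the stable group in red above the transient group in blue. Points are arrays, ticks are group means and lines are limma 95% intervals. Tcim stands at 3.55 and 2.82 on the stable arrays, Wnt10b is below 0 on all 4 arrays, and Axin2 is above 0 on the stable arrays and below 0 on the transient arrays.

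Of the 3 ligands, Wnt10b, which activates the canonical branch and in mice favours bone over fat formation, had the ratio furthest from 0 in stable transfectants. On the stable arrays its spot read 1111 and 2072 in the Dlx3 channel, against 2675 and 6741 in the empty-plasmid channel. Both Dlx3 readings lay below the randomized percentile of 1479 and 3087, and both empty-plasmid readings lay above theirs. The normalized ratios were -1.13 and -1.59, a mean of -1.36 ± 0.32 (SD, n = 2; 95% interval -1.65 to -1.07; limma adjusted p = 0.00528). Dlx3 cells were the lower on both arrays, and the call held under print-tip loess at -1.0 (adjusted p = 0.0145), which is a 2.01-fold difference in place of 2.57-fold.

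On the transient arrays Wnt10b read 1377 and 957 in Dlx3 cells, against 2277 and 1583 in control MEFs. The ratios of -0.54 and -0.66 gave a mean of -0.60 ± 0.08 (n = 2), which did not pass the test (limma adjusted p = 0.0888). With print-tip loess the transient value was -0.22 (adjusted p = 0.494), while a fit of the transient pair alone with global loess called it (adjusted p = 0.0244). The stable value was lower than the transient one by 0.76 on the log2 scale (95% interval of the difference -1.17 to -0.35), a difference that was not called (adjusted p = 0.137). Leaving out the first stable array gave -0.99 (adjusted p = 0.0231), with the spread of the transient pair alone, and leaving out the second gave -0.54 (adjusted p = 0.0945).

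Wnt4, a ligand known from kidney and gonad development, was printed in the same block. It read 5257 and 3202 in Dlx3 cells, against 8560 and 5095 in empty-plasmid cells, and it was the one probe of the set above the randomized percentile in both channels on all 4 arrays. The stable ratios of -0.58 and -0.52 (mean -0.55 ± 0.04, n = 2, limma adjusted p = 0.0136) stood beside a median of -0.45 and -0.39 for the 24 spots around it within 2 rows and columns. Under print-tip loess the ratio was -0.19 (adjusted p = 0.145), so the stable call for Wnt4 was lost when blocks were normalized apart.

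On the transient arrays Wnt4 read 1382 and 1853 in Dlx3 cells, against 1433 and 2224 in control MEFs, ratios of 0.02 and -0.19 with no call (limma adjusted p = 0.623). Print-tip loess turned the transient mean of -0.08 to 0.27 (adjusted p = 0.203). The stable minus transient value moved little between the normalizations, at -0.47 with global loess and -0.46 with print-tip loess, and was called with neither (adjusted p = 0.163 and 0.146).

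Wnt5a, a ligand that acts mainly without beta-catenin, read 380 and 447 in stable Dlx3 cells, against 352 and 352 in empty-plasmid cells. In the transient group it read 909 and 335 in Dlx3 cells, against 714 and 276 in control MEFs. All 4 ratios were above 0, at 0.06 and 0.32 on the stable arrays, against 0.43 and 0.29 on the transient arrays, and neither group was called (limma adjusted p = 0.174 and 0.122). The mean of both groups was 0.28 (adjusted p = 0.0328), a call that ended under print-tip loess at 0.14 (adjusted p = 0.129) and when the second stable array, the first transient array or the second transient array was left out (adjusted p = 0.0507, 0.2 and 0.131). None of its spots exceeded the randomized percentile.

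Fzd1, a seven-pass receptor for WNT ligands, was higher in Dlx3 cells on every array. On the stable arrays it read 3223 and 7168 in Dlx3 cells, against 1791 and 3224 in empty-plasmid cells. On the transient arrays it read 2113 and 4330 in Dlx3 cells, against 1517 and 2909 in control MEFs. Its Dlx3 channel exceeded the randomized percentile on 4 of 4 arrays and its control channel on 3 of 4.

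The stable ratios of Fzd1, 0.88 and 1.21, gave 1.05 ± 0.23 (SD, n = 2; 95% interval 0.81 to 1.29; limma adjusted p = 0.00611). Its block had medians between -0.04 and -0.01 on the 4 arrays, and print-tip loess gave 1.04 (adjusted p = 0.00646). The transient ratios, 0.56 and 0.63, gave 0.60 ± 0.05 and did not pass the test (adjusted p = 0.0709), although the transient arrays alone called the same value (adjusted p = 0.0235). The stable value was higher than the transient one by 0.45 (95% interval 0.11 to 0.79), which was not called (adjusted p = 0.19). With the spread of the transient pair alone, it was 0.62 when the first stable array was left out (adjusted p = 0.0378) and 0.28 when the second was (adjusted p = 0.212).

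**Figure D3:**
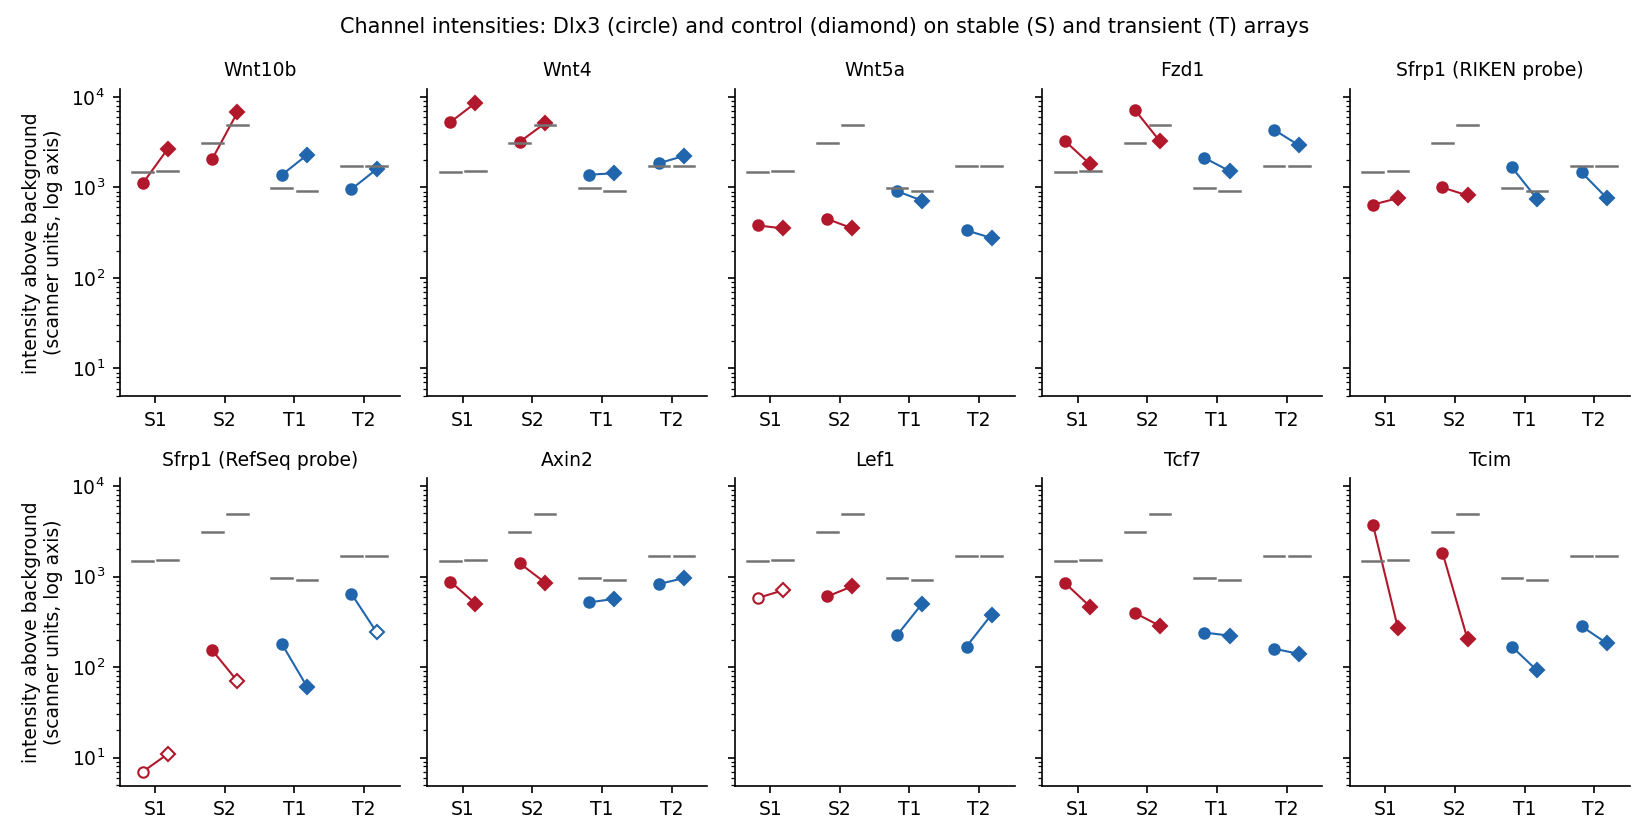
Background-subtracted intensity (scanner units, log axis) of each tested WNT probe on the stable arrays (S1 and S2, red) and the transient arrays (T1 and T2, blue), with the Dlx3 channel as a circle and the control channel as a diamond joined to it. Open symbols were not above local background, and grey bars give the randomized percentile of that channel. Wnt4 lies above the bars in both channels on all 4 arrays, while Wnt5a, Axin2, Lef1, Tcf7 and the RefSeq probe of Sfrp1 lie below them throughout.

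Of the secreted proteins, Sfrp1, a decoy that binds WNTs, was measured by 2 probes in different blocks. The RIKEN probe read 645 and 997 in stable Dlx3 cells, against 761 and 814 in empty-plasmid cells. It read 1662 and 1467 in transient Dlx3 cells, against 746 and 766 in control MEFs. The channels were thus far apart on both transient arrays and close on both stable arrays.

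The transient ratios of the RIKEN probe were 1.12 and 0.93, a mean of 1.03 ± 0.14 (2.04-fold, n = 2, limma adjusted p = 0.0627), which missed the threshold. The RefSeq probe gave 0.92 and 1.25, a mean of 1.08 ± 0.24 (adjusted p = 0.072), from 180 and 645 units in Dlx3 cells, against 61 and 244 units in control MEFs. On the second transient array the control spot of that probe was not above background, so its ratio there has no measured denominator and no fold is given. Both probes were called in the fit on the transient arrays alone (adjusted p = 0.0145 and 0.0195), and print-tip loess left both uncalled at 1.16 and 1.15 (adjusted p = 0.0521 and 0.119). With the 4 arrays fitted together, neither probe was called in the transient group. The mean of both groups was called for both, at 0.54 for the RIKEN probe and 0.75 for the RefSeq probe (limma adjusted p = 0.0139 and 0.0161).

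In the stable group the RIKEN probe of Sfrp1 gave -0.19 and 0.31, a mean of 0.06 (limma adjusted p = 0.753), and the value was -0.19 without the second stable array. The RefSeq probe gave 0.01 and 0.81. In the stable group its control channel was above background on 0 of 2 arrays and its Dlx3 channel on 1 of 2, so no fold is given (adjusted p = 0.157). The first stable spot was marked as not found, and with that array left out the value of 0.81 had an adjusted p of 0.0154, a test of 1 stable array with the spread of the transient pair. Stable minus transient was -0.97 for the RIKEN probe (adjusted p = 0.114). With the spread of the transient pair alone, it was -0.72 when the first stable array was left out (adjusted p = 0.0392) and -1.21 when the second was (adjusted p = 0.0234).

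Dkk3, a divergent member of the dickkopf family, read 10 and 16 units in stable Dlx3 cells, against 18 and 21 in empty-plasmid cells. In the transient group it read 38 and 30 units in Dlx3 cells, against 9 and 21 in control MEFs. The scanner software marked the spot as not found on all 4 arrays, so Dkk3 was not detectable with this probe.

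Axin2, the scaffold that is both a brake on beta-catenin and a target of it, had group means of opposite sign, of which only the stable one was called. It read 883 and 1400 in stable Dlx3 cells, against 504 and 861 in empty-plasmid cells. It read 520 and 829 in transient Dlx3 cells, against 568 and 964 in control MEFs. Dlx3 cells were higher on both stable arrays and lower on both transient arrays, with every spot below the randomized percentile.

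The stable ratios of Axin2, 0.72 and 0.68, gave a rise of 0.70 ± 0.03 (SD, n = 2; 95% interval 0.52 to 0.89; limma adjusted p = 0.00784), and print-tip loess gave 0.65 (adjusted p = 0.0109). Of the 192 randomized oligonucleotides, 1 had a stable mean as far from 0. The transient ratios of -0.09 and -0.20 gave -0.15 ± 0.08, with no call (adjusted p = 0.346). Stable minus transient was 0.85 (95% interval 0.59 to 1.11), just short of the threshold at an adjusted p of 0.0594. With 1 stable array left to stand for its group it was 0.83 without the first and 0.87 without the second (adjusted p = 0.0279 and 0.0378), with a spread that comes from the transient pair alone. With 1 transient array left it was 0.90 without the first and 0.79 without the second (adjusted p = 0.375 and 0.34).

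Of the TCF/LEF factors, Tcf7 rose in stable transfectants. It read 842 and 397 in Dlx3 cells, against 463 and 285 in empty-plasmid cells. The ratios of 0.78 and 0.40 gave 0.59 ± 0.27 (SD, n = 2; 95% interval 0.33 to 0.85; limma adjusted p = 0.018), and print-tip loess gave 0.56 (adjusted p = 0.0268). The arrays thus shared the direction and differed in size, and both spots lay below the randomized percentile.

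In the transient group Tcf7 read 241 and 160 in Dlx3 cells, against 223 and 140 in control MEFs, ratios of 0.07 and 0.09 with no call (limma adjusted p = 0.719). The 95% interval of that mean ran from -0.18 to 0.34. Stable minus transient was 0.51 (95% interval 0.15 to 0.87, adjusted p = 0.18). With the spread of the transient pair alone, it was 0.32 when the first stable array was left out (adjusted p = 0.103) and 0.70 when the second was (adjusted p = 0.049).

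Lef1, the other TCF/LEF factor among the 10 genes, read 581 and 604 in stable Dlx3 cells, against 706 and 784 in empty-plasmid cells. On the first stable array neither channel was above background. It read 225 and 169 in transient Dlx3 cells, against 501 and 381 in control MEFs. Dlx3 cells were lower on all 4 arrays, and the transient arrays showed the wider gap. Tcf7l1 and Tcf7l2, also of this family, had stable means of 0.02 and 0.13 (limma adjusted p = 0.863 and 0.355). Their transient means were 0.40 and 0.31 (adjusted p = 0.0887 and 0.164). Of these factors only Tcf7l2 exceeded the randomized percentile in both channels on all 4 arrays.

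The transient ratios of Lef1, -0.88 and -0.86, gave a fall of 0.87 with an SD of 0.01 (n = 2; 1.83-fold; limma adjusted p = 0.0248). The spots around it had medians of -0.31 and -0.41 on these arrays. Under print-tip loess the value was -0.57 and the call ended (adjusted p = 0.106), as it did without the first transient array (-0.86, adjusted p = 0.313) or the second (-0.88, adjusted p = 0.219). In the stable group the ratios of -0.30 and -0.35 gave -0.32 ± 0.03 (adjusted p = 0.0294), beside medians of -0.49 and -0.43 for the surrounding spots, and 44 of 192 randomized oligonucleotides lay as far from 0. Print-tip loess gave 0.02 (adjusted p = 0.891). The stable call was also lost when the second stable array was left out (adjusted p = 0.071) or either transient array was (adjusted p = 0.0884).

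Lef1 stood higher in stable minus transient by 0.55 with global loess (95% interval 0.30 to 0.80) and 0.58 with print-tip loess, with no call in either (limma adjusted p = 0.114 and 0.126). With the spread of the transient pair alone, it was 0.52 when the first stable array was left out (adjusted p = 0.0441) and 0.57 when the second was (adjusted p = 0.0715). The mean of both groups was called with either normalization, at -0.60 (adjusted p = 0.00512) and -0.27 (adjusted p = 0.0415). The print-tip mean combined 0.02 in the stable group with -0.57 in the transient group.

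**Figure D4:**
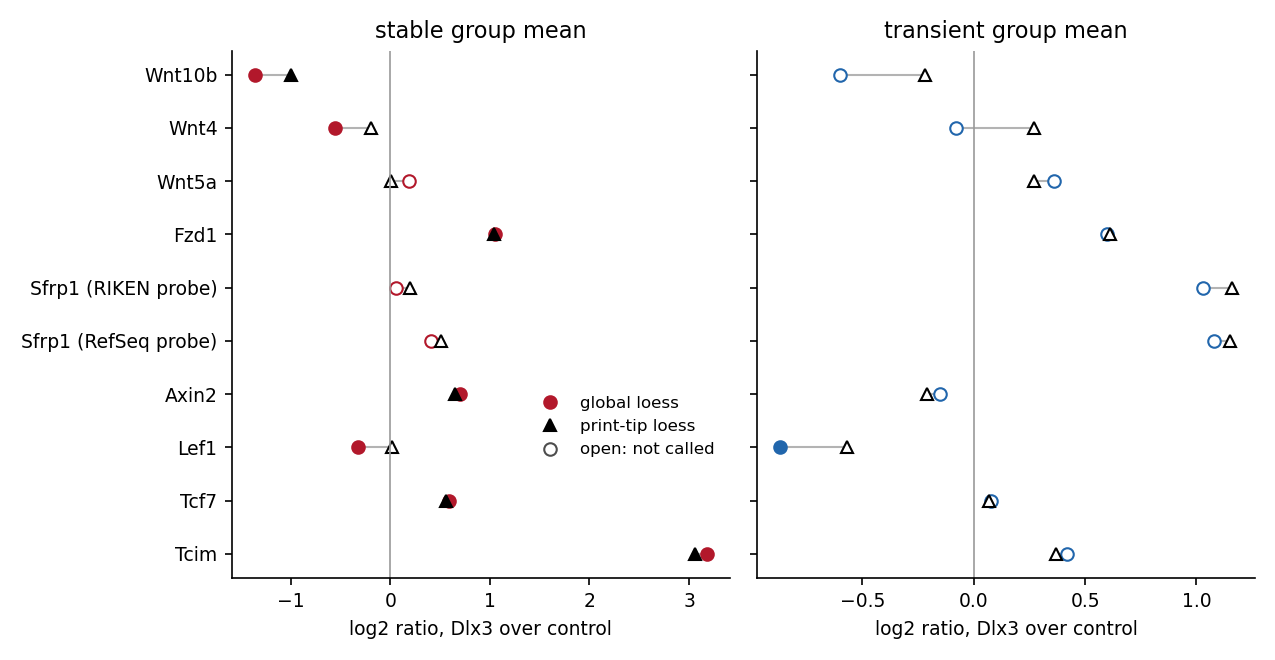
Group mean log2 ratio (Dlx3 over control) of the 10 tested WNT probes in the stable group (left) and the transient group (right), with global loess as circles and print-tip loess as triangles. Filled symbols were called (limma adjusted p under 0.05). Wnt10b, Wnt4 and Lef1 move towards higher values under print-tip loess in both groups, and Lef1 in the stable group crosses 0 to 0.02, while Fzd1, Axin2, Tcf7 and Tcim stay on the same side of the threshold.

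Tcim showed the largest ratio of the 10 genes. It read 3758 and 1845 in stable Dlx3 cells, against 269 and 204 in empty-plasmid cells, with all 4 spots above local background and 0% of pixels saturated. The ratios of 3.55 and 2.82 gave a rise of 3.18 ± 0.51 (SD, n = 2; 95% interval 2.79 to 3.58; 9.07-fold; limma adjusted p = 0.00239). The Dlx3 channel of the first stable array was the one spot of Tcim above the randomized percentile, and 0 of 192 randomized oligonucleotides had a stable mean as far from 0.

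In the transient group Tcim read 168 and 283 in Dlx3 cells, against 92 and 184 in control MEFs. The ratios of 0.43 and 0.42 gave 0.42 (SD 0.01, n = 2; 1.34-fold), which was not called (limma adjusted p = 0.225). It was called on the transient arrays alone (adjusted p = 0.0283). Stable minus transient was 2.76 (95% interval 2.20 to 3.32; 6.78-fold; adjusted p = 0.0226), and 2.69 under print-tip loess (adjusted p = 0.0246). The call of the difference was lost without the first transient array (2.77, adjusted p = 0.0951) or the second (2.76, adjusted p = 0.0849), where 1 transient array is left to stand for its group, with scaling between arrays at 2.20 (adjusted p = 0.0709) and with plain background subtraction at 2.88 (adjusted p = 0.0666).

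The probes nearest to 3 of these genes were taken as those with the smallest root mean square difference of log2 ratio over the 4 arrays. For Tcim they were Msln, which encodes the surface protein mesothelin, Spp1, which encodes the matrix protein osteopontin, and Cdkn1c, which encodes a cell cycle inhibitor, at 0.551, 0.596 and 0.78. Msln and Spp1 were high on both stable arrays (3.15 and 2.41 for Msln, 3.41 and 2.92 for Spp1) and below 0 on both transient arrays (-0.33 and -0.14 for Msln, -0.47 and -0.35 for Spp1). Cdkn1c read 2.0 and 2.92 on the stable arrays, against 0.51 and 0.55 on the transient arrays. The same 3 probes were nearest to Tcim under print-tip loess.

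For Wnt10b they included Tmeff2, which encodes a transmembrane protein, and Rras2, which encodes a small GTPase, at 0.246 and 0.248. For Lef1 they were Cd151, which encodes a tetraspanin, Hes7, a transcriptional repressor gene, and Gatad2a, which encodes a chromatin protein, at 0.131, 0.144 and 0.163. Rras2 and all 3 neighbours of Lef1 are printed in block 29 as well. Under print-tip loess the nearest to Wnt10b were Tubb3, Tinagl1 and Cpne8, and those to Lef1 were Mphosph10, Rpl14 and Gstcd, none of them in block 29. The likeness of both genes to others therefore changed with the normalization.

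The wider pathway was read from a list of 131 WNT genes by role, of which 121 were other than the 10 above and 92 of those had a probe. In stable transfectants 16 of the 88 tested probes of these other genes were called (18.2%, 11 higher and 5 lower), with a median of 0.03, and 8 of them were also called under print-tip loess. In the transient group and in stable minus transient, 0 of 88 were called by limma, with 22 and 13 at an unadjusted p under 0.05, where 20.2% and 19.5% of all probes were. The stable share of 18.2% lies near the 22.7% of all probes.

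Of 10 tested probes of ligands beside the 3 above, 2 were called higher and 0 lower in the stable group by limma. Of all probes, 11.6% were called higher. Under print-tip loess 1 of the 10 was called, where 17.3% of all probes were. Wnt6 read 0.94 and 0.57 on the stable arrays, a rise of 0.76 ± 0.26 (limma adjusted p = 0.0117), against 0.12 and -0.01 on the transient arrays. Wnt10a, the closest relative of Wnt10b, read 1.17 and 0.28 (mean 0.72, adjusted p = 0.0447), a call that ended under print-tip loess (0.68, adjusted p = 0.058) and when the first stable array was left out (0.28, adjusted p = 0.0601). In the stable group these 2 ligands and Wnt10b stood on opposite sides of 0.

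Of 14 tested probes of other receptors and co-receptors, 4 were called in the stable group (28.6%, 2 higher and 2 lower), where 22.7% of all probes were. Of these 4, 3 were also called under print-tip loess, 2 higher and 1 lower. Lrp6, the co-receptor of the canonical branch, rose by 0.50 ± 0.03 (limma adjusted p = 0.0139). It read 0.48 and 0.52 on the stable arrays, against 0.61 and 0.47 on the transient arrays. A clone probe of Fzd5 rose by 0.44 (adjusted p = 0.0183), with no call without the second stable array (0.37, adjusted p = 0.0528), while the RefSeq probe of Fzd5 read 0.12 and -0.02. Fzd2 was called at -0.38 (adjusted p = 0.0311) and is printed in block 30, with block medians of -0.27 and -0.23 on the stable arrays. Its print-tip value was -0.14 (adjusted p = 0.268), and it was also not called without the first or the second stable array (-0.31 and -0.44, adjusted p = 0.0774 and 0.0503).

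Of 9 tested probes of other secreted inhibitors, 0 were called by limma in the stable group, with 1 at an unadjusted p under 0.05, where 22.7% of all probes were called and 40% had such a p. Inside the cell, Nkd2, a feedback inhibitor that binds dishevelled, rose by 0.41 ± 0.02 (limma adjusted p = 0.0182). It read 0.40 and 0.43 on the stable arrays, against -0.04 and 0.05 on the transient arrays. Its relative Nkd1 was called with neither probe in the stable group (0.02 and 0.06, limma adjusted p = 0.866 and 0.568). Ctnnb1, which encodes beta-catenin, was called at 0.50 (adjusted p = 0.0372) and Dvl2, a dishevelled gene, at 0.47 (adjusted p = 0.0266). Neither held under print-tip loess, at 0.34 each (adjusted p = 0.0956 for Ctnnb1 and 0.089 for Dvl2). Ctnnb1 was not called without the second stable array (0.25, adjusted p = 0.103), nor Dvl2 without the first or the second (adjusted p = 0.0752 and 0.0589).

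Of 13 tested probes of other target genes, 3 were called in the stable group (23.1%, 1 higher and 2 lower). That share lies near the 22.7% of all probes. Among these 3, Fosl1, which encodes an AP-1 transcription factor, fell by 0.87 on the log2 scale (SD 0.43, limma adjusted p = 0.0145). Its print-tip value was -0.80 (adjusted p = 0.0311). It read -0.57 and -1.17 on the stable arrays, against -0.73 and -0.70 on the transient arrays, below 0 on all 4. Vangl2, a gene of planar cell polarity, rose by 0.43 ± 0.14 (adjusted p = 0.0207), and was not called without the second stable array (0.33, adjusted p = 0.0598). With either transient array left out, which leaves the stable means as they are, the calls of Nkd2, Fzd5, Fzd2, Ctnnb1, Vangl2 and Wnt10a also ended (adjusted p between 0.0512 and 0.0708). The other 6 probes called had stable ratios between -0.37 and 0.30.

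**Figure D5:**
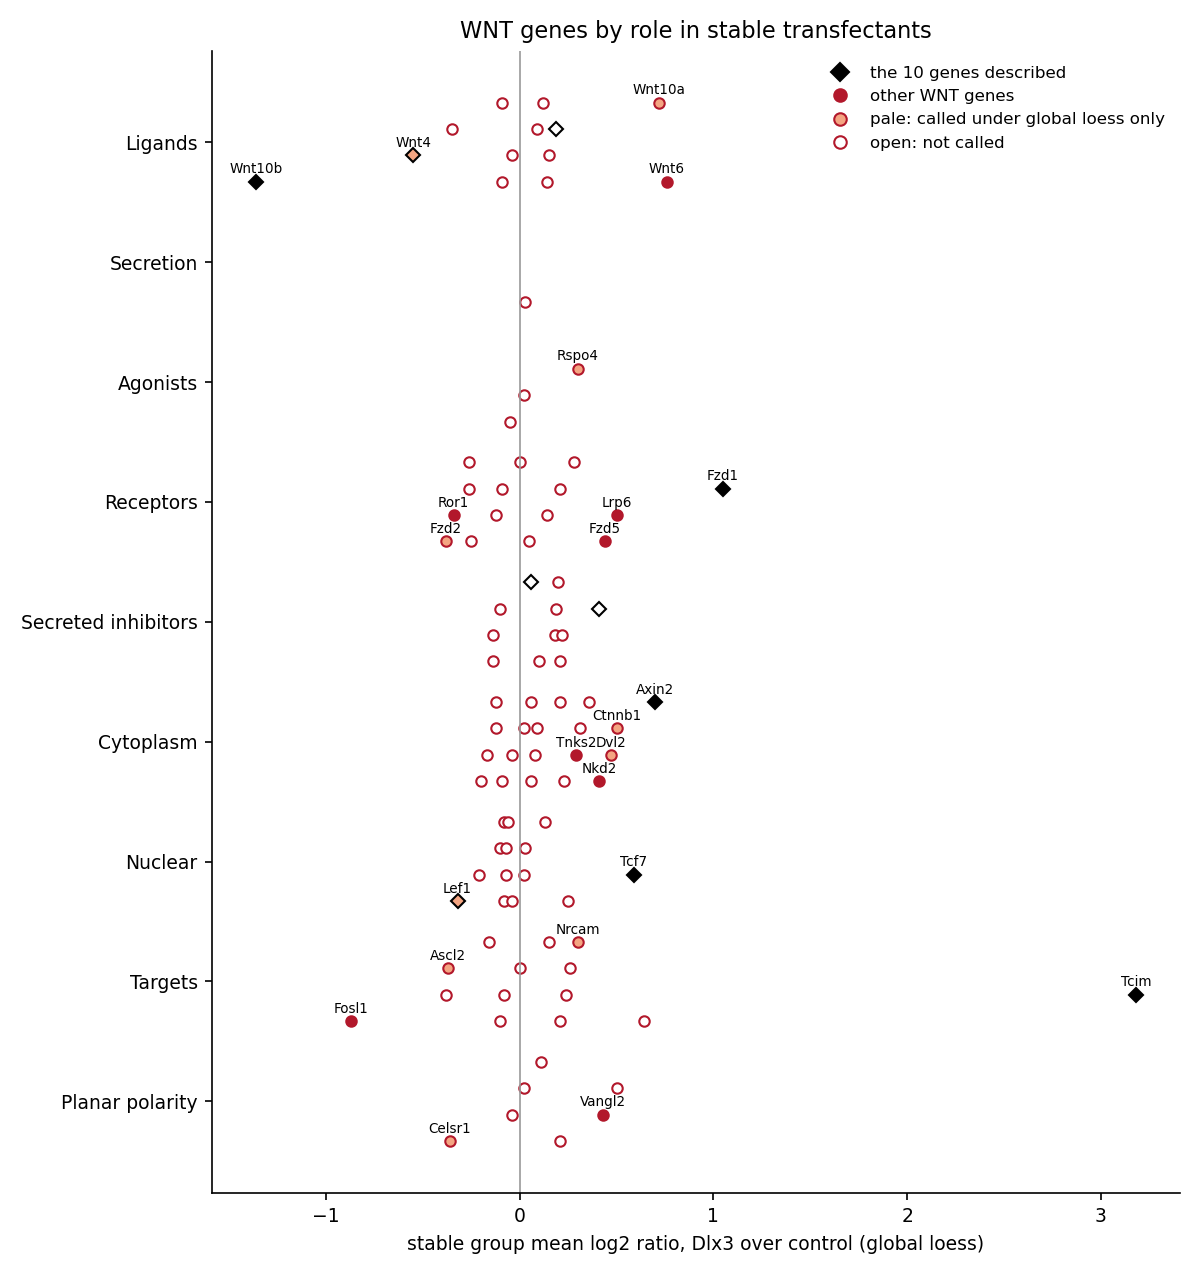
Stable group mean log2 ratio (Dlx3 over control, global loess) of every tested probe of the WNT list, in rows by role, with the 10 genes described as diamonds and the other genes as circles. Called probes carry their symbol and are dark where print-tip loess also called them and pale where it did not, and open symbols were not called. Tcim, Fzd1 and Wnt6 lie furthest to the right among called probes, Wnt10b and Fosl1 furthest to the left.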

How the data were processed

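The deposited scanner tables give, per the file headers, foreground and local background intensity for 17664 spots at 635 nm (Cy5, the Dlx3 cells) and 532 nm (Cy3, the controls), read with GenePix Pro 5.0.0.49, with the percent of saturated pixels and a score for spots marked bad or not found. The authors' deposited value table holds a second score per spot, which behaved as minus the linear ratio of control over Dlx3, with column medians between -1.01 and -1 and correlations of 0.862 to 0.957 with the scanner log2 ratios over spots. Its scale, centring and missing values are not given in the sources used here, and it served as an alternative.

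From the intensities, log2 ratios were computed in limma 3.58.1 (R 4.3.3): normexp background correction with offset 50, and global loess per array with the 1009 control spots at weight 0. The ratios used the mean foreground and median local background of each spot. The channel readings printed above are median foreground minus median background, before normalization. A printed pair of readings therefore need not give its printed ratio. Bad spots were dropped, and repeated spots were averaged. A probe was tested where its median foreground passed the background by 2 SDs in either channel on at least 2 arrays. lmFit and eBayes took the 4 arrays together with a mean for each group, giving 4 contrasts, two-sided, with Benjamini-Hochberg adjustment over all probes tested. With 2 arrays a group, their number limits the precision. The code was tested on simulated data.

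Of 16463 probes, 6678 were named by accession, 5767 by clone name and 77 by a symbol in the description (RefSeq table, GRCm38.p6, names only), and 3941 have no symbol. Other genes named are the up to 10 WNT genes of largest called change per contrast, any called ligand, frizzled or secreted inhibitor, and the 3 nearest probes to Wnt10b, Tcim and Lef1, except 1 gene that is not reported here. Tcf7l1, Tcf7l2 and Nkd1 are also named, as relatives of genes that were called. The 10 genes and the WNT list were chosen with earlier results of these data known. Alternatives were print-tip loess, median centring, scaling between arrays, plain subtraction, other filters, robust eBayes, 1 group's arrays alone, the authors' values, leaving out spots not found, and leaving out each array. Centring each block on its median was added after the block medians were seen.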

Additional observations from a re-analysis of the deposited data

Results flagged for a closer look

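Stable and transient transfectants differed past the threshold for Tcim, by 2.76 in stable minus transient (log2, limma adjusted p = 0.0226). The probes nearest to Tcim were chosen for ratios like its own over these arrays, so their differences are descriptions with no test. Spp1 differed by 3.58 and Msln by 3.02, each above 0 on both stable arrays and below 0 on both transient arrays. Axin2 was also above 0 on both stable arrays and below 0 on both transient arrays, with a difference of 0.85 that missed the threshold (adjusted p = 0.0594).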

How the results depend on the processing

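The stable calls of Tcim, Fzd1, Axin2, Tcf7 and Wnt10b kept their direction and their call in every alternative that gave them a value. The filter against randomized oligonucleotides left 3 of the 10 probes to test, Wnt10b, Wnt4 and Fzd1. It removed Tcim, Axin2 and Tcf7, whose calls therefore have no value there. With this filter 3 were called in the stable group, where 1321 of all 4485 probes left to test were. It called 3 in the mean of both groups and 0 in stable minus transient (3 of 3 at an unadjusted p under 0.05). The counts over all probes for those contrasts are given below. The transient count of 1 became 0 with print-tip loess, block centring and plain subtraction (7 of 10 at an unadjusted p under 0.05 in each), 3 with the authors' deposited values, 5 with median centring, 6 with scaling between arrays and 7 on the transient arrays alone. In stable minus transient the count of 1 became 2 with median centring and with scaling, and 0 with plain subtraction (8 of 10 at an unadjusted p under 0.05). Leaving out each array in turn gave 6 to 8 called in the stable group, 0 to 7 in the transient group, 0 to 6 in stable minus transient and 4 to 10 in the mean of both groups. Directions turned for Lef1 in the stable group (0.02 with print-tip loess, 0.03 with block centring), for Wnt4 in the transient group (0.27, 0.21, and 0.02 without the second transient array) and in the mean of both groups (0.04 and 0.01), and for the RIKEN probe of Sfrp1 in the stable group (-0.19 without the second stable array and 0.31 without the first). Causes were not tested.

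Over all probes, the 3323 called in the stable group became 2141 with scaling, 2072 with plain subtraction, 1321 with the randomized filter, 1230 on the stable arrays alone and 1230 to 4350 without an array. The 21 called in the transient group became 13 with block centring, 12 with no filter, 102 with the randomized filter, 223 with the authors' values (107 higher and 116 lower), 647 with median centring, 1400 with scaling, 1298 on the transient arrays alone, 3 to 1298 without an array, and 0 with plain subtraction (limma, 3030 at an unadjusted p under 0.05). The 35 of stable minus transient became 88 with median centring, 12 with the randomized filter, 3 to 1369 without an array and 0 with plain subtraction (2495 unadjusted). The 3259 of the mean of both groups became 1903 with print-tip loess, 1832 with block centring, 1464 with the randomized filter and 222 to 4975 without an array. All 4 arrays share 1 scan date, so a scan-date block could not be fitted. Each ratio already pairs Dlx3 cells with their control on the same slide, and the labels give no pairing of stable with transient arrays. Signal limits these values: 5 of the 10 tested probes never exceeded the randomized percentile in either channel. Among the other WNT genes, neither did the probes of Wnt6, Nkd2, Fosl1 and Vangl2.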
